A study of Mus musculus with 18 samples.

Results

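The serotonin receptor genes described here are 10 genes of the mouse Htr family: Htr1a, Htr1b, Htr1d, Htr1f and Htr5a, Htr2a and Htr2c, Htr4 and Htr7, and Htr3a. They were chosen by name and matched by symbol to the Ensembl identifiers of the 38561 genes counted, and all 10 passed the filter on low counts that 17545 genes passed. The mRNA came from the frontal cortex, striatum and hippocampus of adult WT mice and their Pcm1-/- littermates, with the strain labelled C57 Bl6J and no treatment named, and 3 libraries were made for each genotype in each region (18 in all). The deposited files tie the 3 regions to the same animals. The mutants descend from gene-trap embryonic stem cells of the E14Tg2a.4 line that were crossed onto C57BL/6J, and the allele is present in every tissue throughout life. The labels do not give the sex of the mice sequenced.

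Serotonin reaches the forebrain through fibers of the raphe nuclei and acts on receptors made by the cells there. Receptors of the HTR1 and HTR5 groups couple to Gi/o proteins, which lower cyclic AMP and open GIRK potassium channels, whereas HTR2 receptors couple to Gq/11 and phospholipase C, and HTR4 and HTR7 couple to Gs and raise cyclic AMP. HTR3A differs from all of these in being a subunit of a cation channel that serotonin opens directly. HTR2A and HTR2C are targets of many antipsychotic drugs, and HTR2C is also made by the epithelium of the choroid plexus, which secretes the cerebrospinal fluid.

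Each library held between 24950537 and 33405081 counts on genes. Pcm1 measured 120 to 172 CPM (counts-per-million of the library's counts on genes, scaled with edgeR's TMM factors) in the WT libraries and 11.8 to 17.6 CPM in the mutant libraries, and every library matched its genotype label. By tissue, markers of striatal projection neurons summed to between 9079 and 11230 CPM in the striatum and to at most 360.5 CPM elsewhere, and those of cortical projection neurons summed to 731 to 848 CPM in the frontal cortex and at most 233 CPM elsewhere. Markers of hippocampal neurons reached 615 to 779 CPM in the hippocampus against at most 385 CPM elsewhere. Some libraries stood apart by their content. The 11 markers of the choroid plexus summed to 6219 CPM in WT striatum library 3 and to 34.6 to 175 CPM in the other striatal libraries, and they ranged from 237 to 6516 CPM in the hippocampus. WT hippocampus library 3 had 192 CPM of 4 habenula markers, against 39.7 to 46.3 CPM in the other hippocampal libraries. These 4 markers also summed to 59.4 to 92.4 CPM in the frontal cortex. In dissected tissue, fewer cells of a type and less RNA per cell cannot be told apart.

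Each region had its own make-up of serotonin receptor mRNA. To compare levels between genes, CPM were divided by the length of the gene's exons in kilobases, and each gene's share of the sum over the 10 genes was taken. In the WT frontal cortex Htr2a held 20.5% ± 3.54 (SD, n = 3) of this sum, Htr5a 19.4% ± 1.94 and Htr1a 17.6% ± 1.57. The ranges of these 3 leading genes overlapped across libraries, so their order is not resolved. The WT striatum was led by Htr2c with 29.4% ± 9.36, followed by Htr1d with 14.8% ± 2.57 and Htr1b with 14.5% ± 3.51. The Htr2c share ranged from 23.8% to 40.2%, the highest in library 3 with its 6219 CPM of choroid plexus markers. Htr1d and Htr1b differed by less than their spread, and each stood under 2% of the sum in the other two regions. In the WT hippocampus Htr2c held 28.4% ± 4.34, Htr1a 20.7% ± 2.59 and Htr3a 11.9% ± 3.11. Htr2c and Htr1a did not overlap there. All 3 of these libraries held 2238 CPM or more of the choroid plexus markers, and in the mutant hippocampus the order was the other way round, with Htr1a at 26.2% ± 2.54 and Htr2c at 18.9% ± 7.32 in overlapping libraries. Summed over the Gi/o-coupled receptors, the share was 44.1% for WT frontal cortex, 44.3% for WT striatum and 34.1% for WT hippocampus, although different genes made it up.

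**Figure D1:**
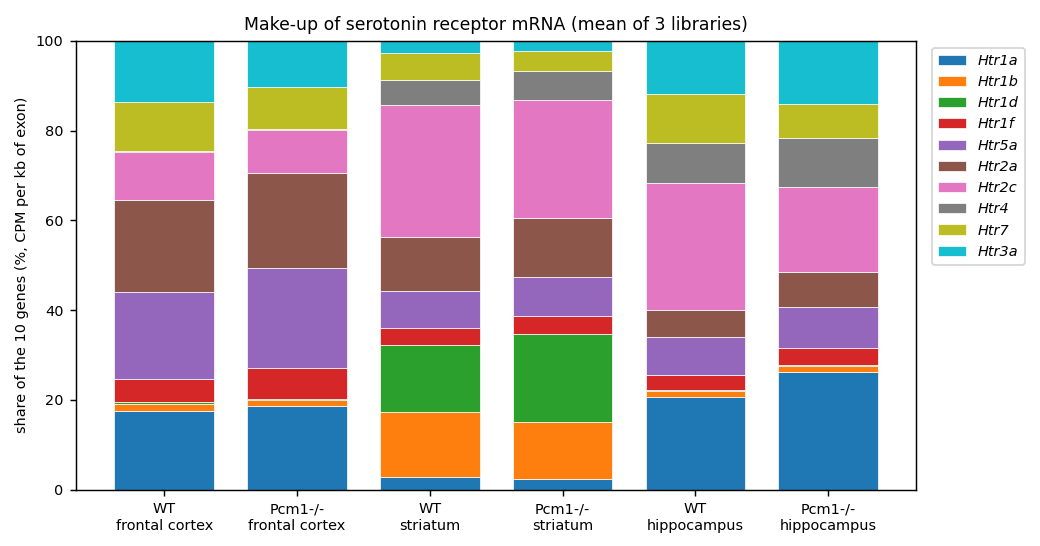
Stacked bars give the share of each of the 10 serotonin receptor genes in their summed level (percent of CPM per kilobase of exon, mean of 3 libraries) for each genotype and region. Htr1b and Htr1d (orange and green) are wide only in the striatum, where in WT mice they hold 14.5% and 14.8%.

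The genes were compared between regions within each genotype, in a fit of the 9 libraries of that genotype. Between striatum and frontal cortex, 10 of 10 genes passed an adjusted p of 0.05 (quasi-likelihood test of edgeR, adjusted over all genes by Benjamini and Hochberg) in WT mice and again in mutants, in the same direction, where 41.5% and 54.3% of all genes passed. At least 2-fold differences made up 7 of these in WT mice (16.6% of all genes) and 8 in mutants (18.7%). Between hippocampus and frontal cortex, 5 genes passed in WT mice (29.8% of all genes) and 6 in mutants (41.5%), with 4 and 3 at 2-fold or more (11.2% and 12.6%). Between striatum and hippocampus, 7 passed in each genotype (29.2% and 45.0%), with 5 and 4 at 2-fold or more (12% and 15.3%). All genes called in WT mice were called in the same direction in mutants, in 10, 5 and 7 genes for the 3 pairs of regions, which share libraries with each other. Every adjusted p between regions below comes from these fits.

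**Figure D2:**
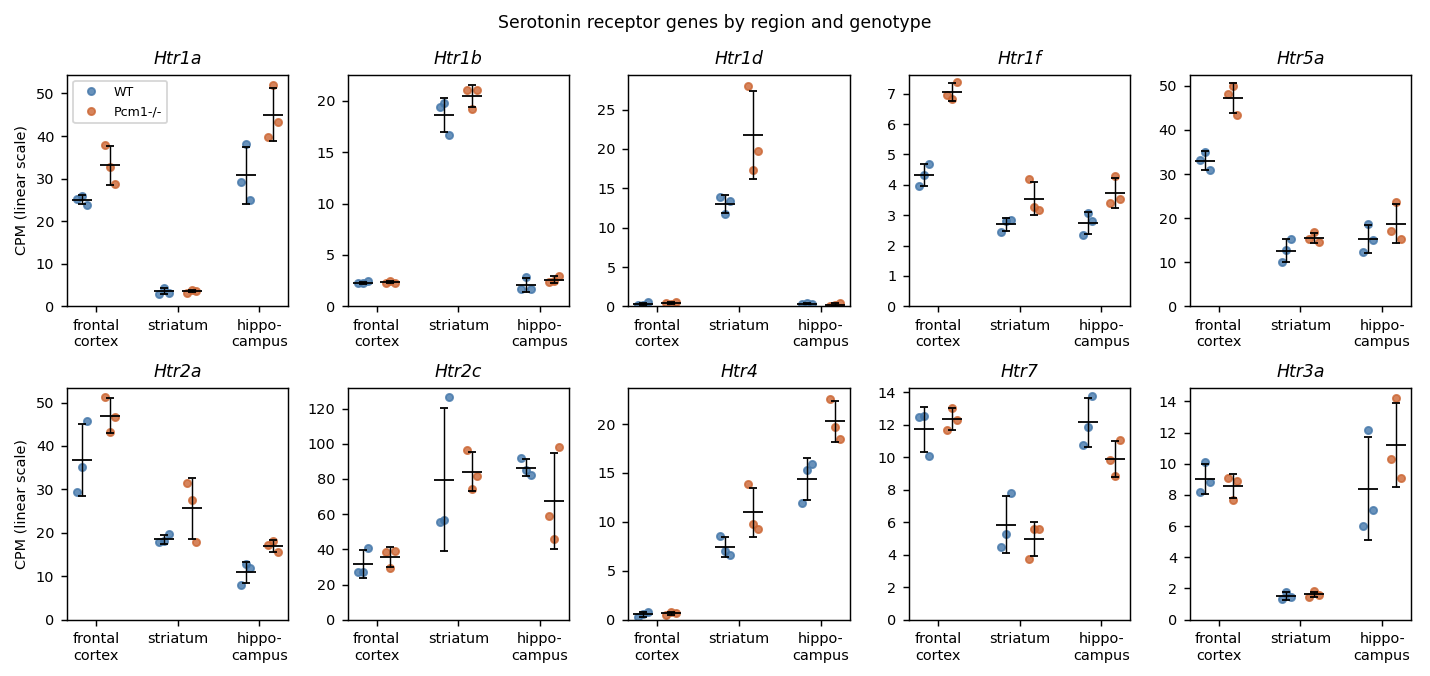
Each panel plots the CPM (linear scale) of a serotonin receptor gene in every library, with WT in blue and Pcm1-/- in orange, the mean as a wide bar and the SD as error bars (n = 3 per group). Htr1b and Htr1d stand out in the striatum, Htr4 is lowest in the frontal cortex, and a single WT striatal library carries the highest Htr2c value (127 CPM).

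Among the Gi/o-coupled receptors, Htr1a was a gene of the cortex and hippocampus. Htr1a (ENSMUSG00000021721) lies on chromosome 13 (GRCm38, 105443639 to 105448122, plus strand) and has a single exon. WT mice had 25.3, 25.9 and 23.9 CPM in the frontal cortex, 3.01, 4.32 and 3.18 CPM in the striatum and 29.2, 38.1 and 25.0 CPM in the hippocampus. Mutants had 37.8, 32.8 and 28.8 CPM, 3.25, 3.88 and 3.65 CPM, and 39.9, 52.0 and 43.3 CPM in the same order of regions. Every striatal library was below every library of the other two regions. The striatum was 7.12-fold below the frontal cortex in WT mice (log2 fold change −2.83 ± 0.18 SE, adjusted p = 1.19e-06) and 9.17-fold below it in mutants (−3.20 ± 0.14, adjusted p = 2.18e-08). Frontal cortex and hippocampus overlapped in WT mice (0.29 ± 0.16, adjusted p = 0.200), and leaving out a library gave 0.11 to 0.43 (adjusted p = 0.0705 to 0.608). In mutants the hippocampus was higher (0.43 ± 0.12, adjusted p = 0.0133), a call that was lost without mutant frontal cortex library 3 (adjusted p = 0.0536).

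Htr1b and Htr1d, whose products are inhibitory receptors found on nerve terminals, marked the striatum. Htr1b (ENSMUSG00000049511, chromosome 9, 81628291 to 81633828, minus strand) measured 19.4, 19.8 and 16.7 CPM in the WT striatum and 21.1, 19.2 and 21.1 CPM in the mutant striatum. In the other two regions its 12 libraries lay between 1.66 and 2.96 CPM. No striatal library overlapped with them, and the striatum exceeded the frontal cortex 8.03-fold in WT mice (3.01 ± 0.20, adjusted p = 1.78e-06) and 8.60-fold in mutants (3.10 ± 0.11, adjusted p = 4.09e-09). Frontal cortex and hippocampus were not told apart (WT −0.17 ± 0.21, adjusted p = 0.599), but without WT hippocampus library 2 the hippocampus was lower (−0.48, adjusted p = 0.0433). The exons of Htr1b share 852 bases with D430036J16Rik on the opposite strand, and the strand setting of the counting is not given in the sources used here. D430036J16Rik was itself high in the striatum (12.1 to 15.4 CPM) and low elsewhere (1.12 to 2.94 CPM), and its part in the Htr1b counts was not tested.

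Htr1d (ENSMUSG00000070687, chromosome 4, 136423524 to 136444398, plus strand) had the widest regional range of the 10 genes. It measured 13.9, 11.7 and 13.4 CPM in the WT striatum and 28.0, 17.4 and 19.8 CPM in the mutant striatum, from 326 to 785 reads. Frontal cortex libraries had 6 to 15 reads and hippocampal libraries 2 to 16 reads, at or below 0.53 CPM. The striatum exceeded the frontal cortex 40.4-fold in WT mice (5.34 ± 0.28, adjusted p = 3.23e-07) and 48.7-fold in mutants (5.61 ± 0.34, adjusted p = 2.32e-07). At so few reads, frontal cortex and hippocampus were not told apart in WT mice (0.14 ± 0.36, adjusted p = 0.809) or in mutants (−0.83 ± 0.55, adjusted p = 0.261). Without mutant hippocampus library 3 the mutant difference was called (−1.96, adjusted p = 0.0298), and without library 1 it was −0.36.

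Because Htr1b and Htr1d were the genes highest in the striatum relative to both other regions, the 250 bases upstream of their RefSeq start sites (GRCm38.p6) are shown, from chr9:81633833-81634082 on the minus strand for Htr1b and from chr4:136423274-136423523 on the plus strand for Htr1d. The table held 2 starts of Htr1d, and the one nearest to the annotated start of the gene is shown. Capitals mark a CCAAT box, read as ATTGG where it lies on the opposite strand, and a GC box.
Htr1b: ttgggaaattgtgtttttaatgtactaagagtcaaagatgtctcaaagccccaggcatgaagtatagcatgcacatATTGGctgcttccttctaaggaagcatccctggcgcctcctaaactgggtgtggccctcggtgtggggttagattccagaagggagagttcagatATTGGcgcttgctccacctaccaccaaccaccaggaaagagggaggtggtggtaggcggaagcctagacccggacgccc
Htr1d: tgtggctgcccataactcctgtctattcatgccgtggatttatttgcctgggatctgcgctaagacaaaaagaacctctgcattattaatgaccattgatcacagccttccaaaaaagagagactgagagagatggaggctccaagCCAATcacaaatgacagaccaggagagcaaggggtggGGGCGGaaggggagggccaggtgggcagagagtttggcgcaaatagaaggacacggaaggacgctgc
Both strands were searched for the TATA box (letters TATAAA), the CCAAT box (letters CCAAT), the GC box (letters GGGCGG), the core of the cyclic AMP response element (letters TGACG) and the E-box of USF type (letters CACGTG), and no matches overlapped in these windows. Htr1b held the CCAAT box at 2 places, and Htr1d held the CCAAT box and the GC box at 1 place each. Of the 32851 promoters in the table, 33.8% held the CCAAT box, 32.7% the GC box, 12.4% the TATA box, 17.8% the core of the response element and 6.02% the E-box within the same 250 bases. A match of letters is a description and not a bound site.

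Htr1f and Htr5a were both highest in the frontal cortex. Htr1f (ENSMUSG00000050783, chromosome 16, 64924729 to 65105854, minus strand) measured 3.96, 4.34 and 4.68 CPM in the WT frontal cortex, 2.46, 2.81 and 2.83 CPM in the WT striatum and 2.35, 3.07 and 2.82 CPM in the WT hippocampus. Mutant libraries had 6.96, 6.82 and 7.38 CPM, 4.18, 3.28 and 3.18 CPM, and 3.39, 4.28 and 3.53 CPM. All cortical libraries of a genotype were above its other libraries. In WT mice the striatum was 1.60-fold (−0.68 ± 0.16, adjusted p = 0.00715) and the hippocampus 1.58-fold (−0.66 ± 0.16, adjusted p = 0.0122) below the frontal cortex. Striatum and hippocampus were alike within their error (−0.02 ± 0.17, adjusted p = 0.945).

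Htr5a (ENSMUSG00000039106, chromosome 5, 27842149 to 27855088, plus strand) measured 33.2, 35.1 and 30.9 CPM in the WT frontal cortex, 9.96, 12.7 and 15.3 CPM in the WT striatum and 12.3, 18.7 and 15.01 CPM in the WT hippocampus. The mutant values were 48.1, 49.96 and 43.4 CPM, 15.2, 16.8 and 14.7 CPM, and 17.1, 23.7 and 15.3 CPM. Cortical libraries again stood above all others of their genotype, by 2.60-fold over the striatum (−1.38 ± 0.18, adjusted p = 0.000132) and 2.16-fold over the hippocampus in WT mice (−1.11 ± 0.17, adjusted p = 0.000967). The difference between striatum and hippocampus did not pass the test (−0.27 ± 0.18, adjusted p = 0.293). Leaving out a library gave −0.43 to −0.11 (adjusted p = 0.0968 to 0.712).

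Of the Gq/11-coupled receptors, Htr2a (ENSMUSG00000034997, chromosome 14, 74640840 to 74709494, plus strand) fell from the frontal cortex over the striatum to the hippocampus. WT mice had 29.3, 35.3 and 45.8 CPM, 17.9, 18.1 and 19.8 CPM, and 8.05, 12.8 and 11.8 CPM in these regions. Mutants had 51.2, 43.1 and 46.7 CPM, 31.4, 27.7 and 17.8 CPM, and 17.2, 18.2 and 15.6 CPM. In WT mice no libraries overlapped between any pair of regions, and the 3 differences all passed the test. The striatum was 1.98-fold below the frontal cortex (−0.99 ± 0.19, adjusted p = 0.00196), and the hippocampus was 3.39-fold below the frontal cortex (−1.76 ± 0.20, adjusted p = 0.000112). The striatum exceeded the hippocampus (0.78 ± 0.19, adjusted p = 0.0121). In mutants this last step was 0.60 ± 0.17 with overlapping libraries (adjusted p = 0.0148), and it was lost without mutant striatum library 1 (adjusted p = 0.0621) or library 2 (adjusted p = 0.050).

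Htr2c (ENSMUSG00000041380, X chromosome, 146962513 to 147197277, plus strand) was lowest in the frontal cortex. WT mice had 27.3, 26.9 and 40.6 CPM there, 55.8, 56.4 and 127 CPM in the striatum and 91.7, 85.3 and 82.3 CPM in the hippocampus. Mutants had 38.4, 29.4 and 39.3 CPM, 96.3, 74.2 and 81.9 CPM, and 58.9, 45.8 and 98.4 CPM. The frontal cortex did not overlap with the other two regions in either genotype, whereas striatum and hippocampus overlapped in both. The WT striatum was 2.52-fold above the frontal cortex (1.34 ± 0.30, adjusted p = 0.00465) and the WT hippocampus 2.73-fold (1.45 ± 0.30, adjusted p = 0.00464). The mutant differences were 1.24 ± 0.24 (adjusted p = 0.00117) and 0.92 ± 0.24 (adjusted p = 0.00970). The latter was 0.55 without mutant hippocampus library 3 (adjusted p = 0.0166) and 0.80 without mutant frontal cortex library 2 (adjusted p = 0.0442).

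Htr2c is set here beside the choroid plexus content of the dissections. WT striatum library 3, with 6219 CPM of the choroid plexus markers (11 of 11 measured), had the highest Htr2c of all 18 libraries, more than the 55.8 and 56.4 CPM of the other WT striatal libraries, whose markers summed to 55.6 and 58.6 CPM. Without that library the WT striatum was still above the frontal cortex, by less (0.83, adjusted p = 0.00267), and it came out below the hippocampus (−0.62, adjusted p = 0.0168), where with all libraries the difference was −0.11 ± 0.29 (adjusted p = 0.817). Among WT hippocampal libraries, Htr2c of 91.7, 85.3 and 82.3 CPM went with marker sums of 6516, 2461 and 2238 CPM. Among mutant hippocampal libraries, Htr2c of 45.8, 58.9 and 98.4 CPM went with marker sums of 237, 2447 and 4322 CPM. Without the highest of these (mutant hippocampus library 3) the mutant striatum was above the hippocampus (0.69, adjusted p = 0.00458), against 0.32 ± 0.23 with it (adjusted p = 0.294). Over all fits that left out a library this difference ranged from 0.11 to 0.69, with adjusted p up to 0.687. In the frontal cortex, where the markers summed to 6.11 to 13.3 CPM and Cldn2, Otx2 and Slc4a5 were at 0 in at least 1 mutant library, Htr2c measured 26.9 to 40.6 CPM. The mutant striatum had 74.2 to 96.3 CPM of Htr2c at marker sums of 34.6 to 175 CPM. Thalamus markers (5 of 5) stood at 124 CPM in WT striatum library 3 against 32.5 and 43.1 CPM in the other WT striatal libraries, and at 228 CPM in mutant hippocampus library 3 against 88.9 and 88.8 CPM in the other mutant ones. The part of either tissue in the Htr2c values was not tested.

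**Figure D3:**
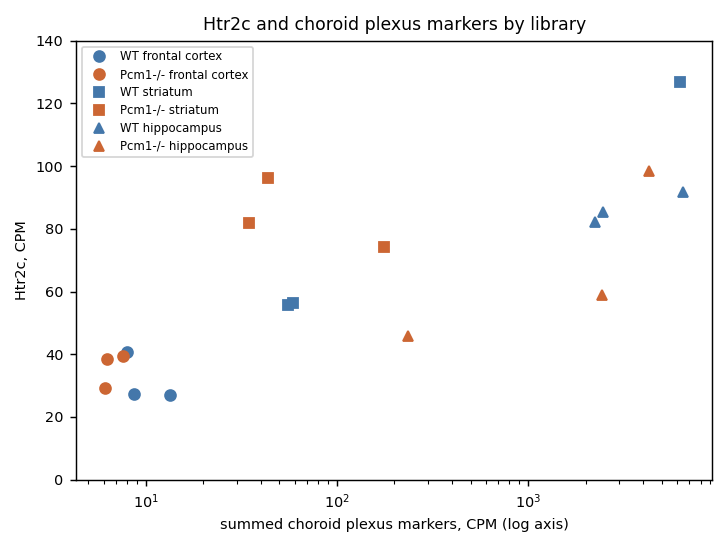
Each point is a library, with the summed CPM of 11 choroid plexus markers on a log axis and the CPM of Htr2c on a linear axis. Symbols give the region and colors the genotype. WT striatum library 3 (blue square, upper right) sits at 6219 and 127 CPM, apart from the other striatal libraries, whose marker sums are at most 175 CPM.

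Both Gs-coupled receptors among the 10 genes had uneven regional levels. Htr4 (ENSMUSG00000026322) lies on chromosome 18 (62324204 to 62496577, plus strand). WT mice had 0.25, 0.61 and 0.77 CPM in the frontal cortex, 8.60, 7.02 and 6.63 CPM in the striatum and 11.9, 15.3 and 15.95 CPM in the hippocampus. Mutants had 0.47, 0.80 and 0.70 CPM, 13.9, 9.83 and 9.26 CPM, and 22.6, 19.7 and 18.5 CPM. In each genotype the 3 regions did not overlap, and the frontal cortex libraries held only 7 to 26 reads. In WT mice the striatum was 13.7-fold above the frontal cortex (3.77 ± 0.30, adjusted p = 5.14e-06), the hippocampus 26.4-fold (4.72 ± 0.30, adjusted p = 3.55e-06), and the striatum lay below the hippocampus (−0.95 ± 0.23, adjusted p = 0.0113).

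Htr7 (ENSMUSG00000024798, chromosome 19, 35958734 to 36057507, minus strand) was lowest in the striatum. WT mice had 12.5, 12.6 and 10.1 CPM in the frontal cortex, 4.45, 5.30 and 7.82 CPM in the striatum and 10.8, 11.9 and 13.8 CPM in the hippocampus. Mutants had 11.7, 13.1 and 12.3 CPM, 3.75, 5.57 and 5.57 CPM, and 9.80, 8.85 and 11.1 CPM. The striatum was below all libraries of the other two regions in each genotype. Its log2 difference was −0.995 ± 0.20 from the frontal cortex (adjusted p = 0.00267) and −1.05 ± 0.20 from the hippocampus (adjusted p = 0.00266) in WT mice. Frontal cortex and hippocampus differed by 0.05 ± 0.20 in WT mice (adjusted p = 0.872) and by −0.32 ± 0.14 in mutants (adjusted p = 0.0968). Without mutant striatum library 1 in the fit, the mutant difference was called at the same size (−0.32, adjusted p = 0.0295).

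The channel subunit gene Htr3a (ENSMUSG00000032269, chromosome 9, 48899213 to 48911099, minus strand), known as a marker of interneurons from the caudal ganglionic eminence, was also lowest in the striatum. WT mice had 8.16, 10.1 and 8.85 CPM in the frontal cortex, 1.32, 1.80 and 1.43 CPM in the striatum and 6.01, 12.2 and 7.02 CPM in the hippocampus. Mutants had 9.09, 7.69 and 8.89 CPM, 1.46, 1.81 and 1.59 CPM, and 10.3, 14.2 and 9.07 CPM. Striatal libraries were below all others, 5.92-fold below the frontal cortex (−2.57 ± 0.27, adjusted p = 3.65e-05) and 5.50-fold below the hippocampus in WT mice (−2.46 ± 0.27, adjusted p = 5.91e-05). Frontal cortex and hippocampus were not told apart in WT mice (−0.11 ± 0.24, adjusted p = 0.779) or in mutants (0.38 ± 0.16, adjusted p = 0.0843). The mutant difference was 0.51 without mutant hippocampus library 3 (adjusted p = 0.0252) and 0.17 without mutant hippocampus library 2 (adjusted p = 0.259). The 7 markers of these interneurons, all measured and none at 0, summed to 195 to 233 CPM in the striatum, 511 to 560 CPM in the frontal cortex and 504 to 581 CPM in the hippocampus, and their part in the Htr3a result was not tested.

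**Figure D4:**
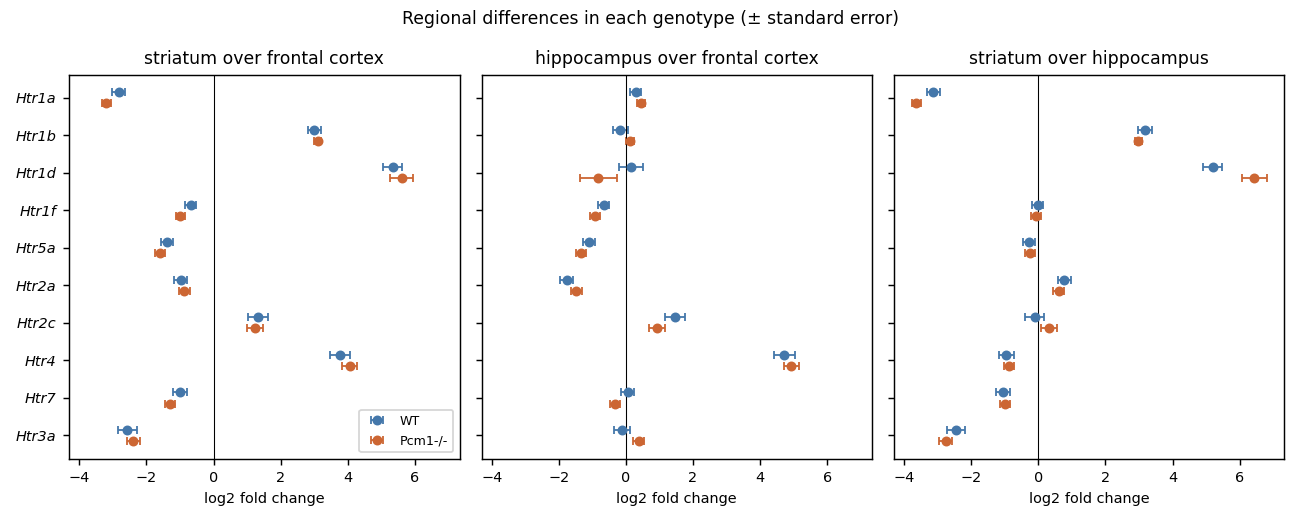
For each gene, points give the log2 fold change between a pair of regions, with WT in blue and Pcm1-/- in orange and the standard error as bars. Htr1d and Htr1b lie far to the right for the striatum, Htr4 for both regions over the frontal cortex, and Htr1a and Htr3a far to the left for the striatum. The widest gap between genotypes is that of Htr1d in striatum over hippocampus (1.24).

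Between genotypes, Htr1f and Htr5a were higher in the mutant frontal cortex. Htr1f rose from 4.33 ± 0.36 to 7.05 ± 0.29 CPM (SD, n = 3 each), 1.62-fold, with a log2 difference of 0.70 ± 0.11 SE and an adjusted p of 0.0223 (edgeR's quasi-likelihood test, 3 against 3 libraries). Htr5a rose from 33.0 ± 2.10 to 47.1 ± 3.38 CPM, 1.42-fold (0.51 ± 0.07, adjusted p = 0.0184). In both genes every mutant library exceeded every WT library. These were 2 of 10 genes called in this comparison, against 1.74% of all genes and 1.41% called higher. Htr1a, with 25.0 ± 1.06 CPM in WT and 33.2 ± 4.54 CPM in mutant libraries, did not overlap either (0.40 ± 0.10), but its adjusted p was 0.0912 (0.0133 with DESeq2). In all, 4 of 10 genes were at an unadjusted p under 0.05, each higher in mutants (7.84% of all genes). The groups did not overlap, with the mutants higher, in 3 of 10 genes and in 12% of all genes.

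The calls in the frontal cortex were lost in some fits, whereas the size of the differences moved little. The call of Htr1f was lost when any library other than WT library 3 was left out (adjusted p = 0.0656 to 0.130), and that of Htr5a without WT library 1 (0.0543), mutant library 1 (0.122) or mutant library 2 (0.0793). In the fit of all 18 libraries Htr5a was not called (0.188, and 0.207 with lane), whereas Htr1f was called without lane (0.0239) and not with it (0.0589). Over the fits that left out a library, the log2 difference ranged from 0.64 to 0.76 for Htr1f and from 0.46 to 0.57 for Htr5a. With sequencing lane in the model the adjusted p was 0.112 for Htr1f and 0.0766 for Htr5a, with log2 differences of 0.63 and 0.53. Htr2a was at 36.8 ± 8.37 CPM in WT and 47.0 ± 4.07 CPM in mutant libraries (0.35 ± 0.14, adjusted p = 0.302), and over the fits that left out a library it ranged from 0.20 (without WT library 1, adjusted p = 0.578) to 0.54 (without WT library 3, its highest WT library, adjusted p = 0.0222). Markers of other cells moved with genotype here. The 4 oligodendrocyte markers summed to 1687 to 2310 CPM in WT and 1506 to 1597 CPM in mutant libraries, and the 4 microglia markers to 253 to 336 CPM and 216 to 247 CPM, with none of them at 0. The 9 markers of striatal projection neurons, also none at 0, summed to 274 to 300 CPM in WT and 332 to 360.5 CPM in mutant libraries of the frontal cortex, and those of the choroid plexus to 7.93 to 13.3 CPM and 6.11 to 7.55 CPM. None of these 4 sums overlapped between genotypes, and their part in the results was not tested.

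The 250 bases upstream of the RefSeq start of Htr5a (GRCm38.p6, chr5:27841697-27841946, plus strand), the receptor gene with the smallest p between genotypes, held none of the 5 motifs searched. This start lies 202 bases upstream of the start in the annotation used for exon lengths.
Htr5a: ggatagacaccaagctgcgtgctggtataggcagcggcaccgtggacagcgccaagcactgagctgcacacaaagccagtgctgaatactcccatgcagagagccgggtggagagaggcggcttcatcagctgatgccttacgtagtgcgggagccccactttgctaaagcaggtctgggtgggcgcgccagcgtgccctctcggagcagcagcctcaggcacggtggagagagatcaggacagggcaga

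In the striatum no serotonin receptor gene passed an adjusted p of 0.05 between genotypes with edgeR, where 0.0285% of all genes did, and 4 of 10 were at an unadjusted p under 0.05, all higher in mutants (6.54% of all genes). Htr1d differed most, with 13.0 ± 1.11 CPM in WT and 21.7 ± 5.59 CPM in mutant libraries, 1.67-fold (0.74 ± 0.17, adjusted p = 0.169). DESeq2 called it at an adjusted p of 0.00432, the only call it made among the 10 genes. Its mutant values of 28.0, 17.4 and 19.8 CPM were all above the WT values, and without the highest of them (mutant library 1) the log2 difference was 0.52 (adjusted p = 0.484). With all 18 libraries and lane in the fit it was 1.34 (adjusted p = 0.245). Htr4 had 7.42 ± 1.04 CPM in WT and 10.98 ± 2.51 CPM in mutant libraries (0.57 ± 0.18, adjusted p = 0.247), and Htr1f 2.70 ± 0.21 and 3.55 ± 0.55 CPM (0.39 ± 0.17, adjusted p = 0.364). These 3 genes had no overlap between groups, as had 9.6% of all genes with the mutants higher. Htr2a (0.47 ± 0.19, adjusted p = 0.334) overlapped, since mutant library 3 had 17.8 CPM, below all WT values. Without mutant library 1 the difference was 0.37 for Htr4 (adjusted p = 0.651) and 0.30 for Htr2a (adjusted p = 0.737).

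The genotype difference of Htr2c in the striatum changed with WT library 3. It was 0.08 ± 0.30 with that library (adjusted p = 0.940) and 0.58 without it (adjusted p = 0.113), called in neither case. Lane 5 held every WT striatal library, and lanes 3 and 4 held those of mutants, so that here the genotype and the lane cannot be told apart. Astrocyte markers (4 of 4 measured, none at 0) summed to 1070 to 1649 CPM in WT and 918 to 1049 CPM in mutant striatal libraries, those of oligodendrocytes to 8337 to 8549 CPM and 5020 to 8315 CPM, and those of striatal projection neurons (9 of 9) to 9079 to 10350 CPM and 10390 to 11230 CPM. Markers of hippocampal neurons (7 of 7) summed to 245 to 275 CPM in WT and 296 to 385 CPM in mutant striatal libraries, and those of cortical projection neurons (7 of 7) to 158 to 161 CPM and 168.5 to 196 CPM. The genotypes did not overlap in any of these 5 sums, none of the markers was at 0, and their part in the striatal values was not tested.

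In the hippocampus no serotonin receptor gene was called between genotypes (0.0171% of all genes) by edgeR within the region or by DESeq2, and 3 of 10 had an unadjusted p under 0.05, all higher in mutants (4.84% of all genes). They were Htr2a with 10.9 ± 2.49 CPM in WT and 16.98 ± 1.30 CPM in mutant libraries (0.62 ± 0.17, adjusted p = 0.405), Htr4 with 14.4 ± 2.15 and 20.3 ± 2.09 CPM (0.48 ± 0.14, adjusted p = 0.405), and Htr1a with 30.8 ± 6.69 and 45.0 ± 6.25 CPM (0.53 ± 0.16, adjusted p = 0.410). The edgeR fit of all 18 libraries with lane called Htr1a (adjusted p = 0.0350). These and Htr1f (0.42 ± 0.19, adjusted p = 0.511) did not overlap between groups, 4 of 10 genes, against 10.6% of all genes with the mutants higher. Without WT library 3, which had the highest sum of habenula markers, the differences were 0.68 for Htr2a, 0.55 for Htr4 and 0.40 for Htr1a. Htr2c and Htr7 had lower means in mutants, by −0.36 ± 0.25 (adjusted p = 0.646) and −0.31 ± 0.14 (adjusted p = 0.526), with overlapping libraries. The difference of Htr2c was −0.75 without mutant library 3 and −0.15 without mutant library 2, and the choroid plexus sums were 2238 to 6516 CPM in WT and 237 to 4322 CPM in mutants. Thalamus markers (5 of 5 measured, none at 0) summed to 206 to 439 CPM in WT and 88.8 to 228 CPM in mutant hippocampal libraries, and oligodendrocyte markers to 4388 to 8948 CPM and 3354 to 5430 CPM, with overlap in both sums. The markers listed for basal forebrain cholinergic neurons (2 of 3 measured) did not overlap in their sum. They were at 0.847, 0.749 and 19.6 CPM in WT and 0.359 to 0.629 CPM in mutants, where Chat was at 0 in library 1. The 19.6 CPM was that of WT library 3, which also had the highest habenula sum, and these markers summed to 86.8 to 109 CPM in the striatum. The part of any of these markers in the hippocampal values was not tested.

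**Figure D5:**
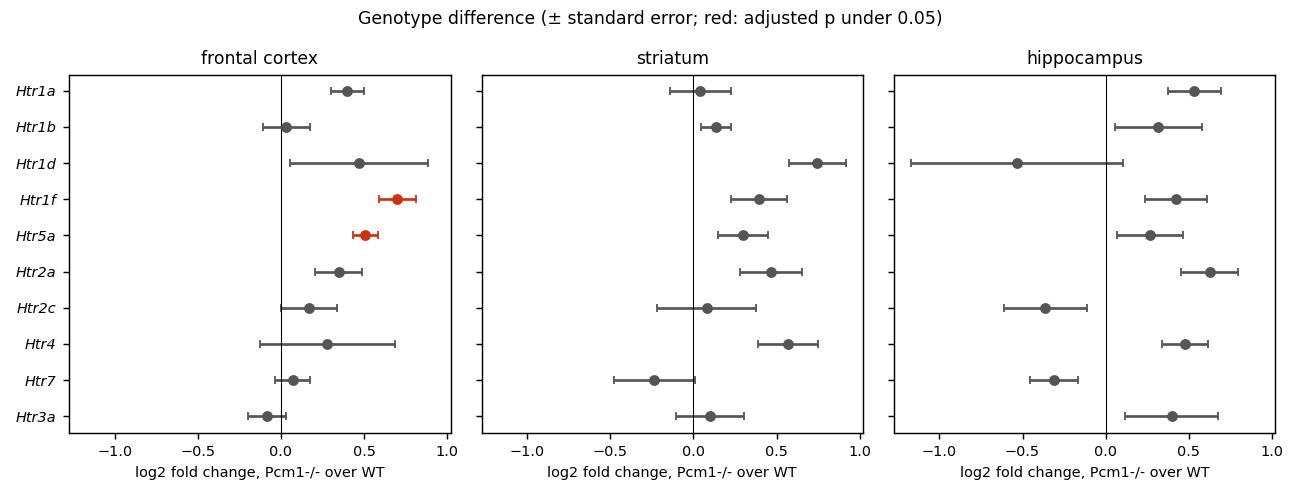
Points give the log2 fold change of Pcm1-/- over WT for each serotonin receptor gene in each region, with the standard error as bars (3 against 3 libraries). Red marks an adjusted p under 0.05, which Htr1f and Htr5a reached in the frontal cortex. Points lie right of 0 for 9 cortical, 9 striatal and 7 hippocampal values.

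Across regions, the mutant estimate was above the WT estimate in 25 of 30 combinations of gene and region. By region these were 9, 9 and 7 of 10 genes, whereas 48.1%, 49.1% and 49.8% of all genes had a positive estimate. The median log2 difference of the 10 genes was 0.31 (frontal cortex), 0.22 (striatum) and 0.36 (hippocampus), and that of all genes −0.00657, −0.00231 and −0.000335. The median over the 10 genes fell to 0.16 in the frontal cortex without WT library 1 and to 0.17 with lane in the model, rose to 0.44 in the striatum without WT library 3, and fell to 0.19 in the hippocampus without WT library 1. Htr1a, Htr1b, Htr1f, Htr5a, Htr2a and Htr4 had positive estimates in 3 of 3 regions (23.3% of all genes), of which only those of Htr1f and Htr5a in the frontal cortex passed the test. The estimates of Htr1a in the striatum and of Htr1b and Htr4 in the frontal cortex turned negative when single libraries were left out (to −0.056, −0.0084 and −0.081). That of Htr1a in the striatum was also negative in the fit of all 18 libraries with lane (−0.23), and that of Htr4 in the frontal cortex with lane in the fit of that region (−0.17), though not in the fit of all 18 libraries with lane. Htr1f alone had groups that did not overlap in any region (1.9% of all genes with the mutants higher in each). Since each animal gave all 3 regions, the regions are not independent repeats of a comparison. Nor are the 10 genes of a region independent of each other, since they were read in the same libraries. In a fit of all 18 libraries, no serotonin receptor gene was called for a genotype difference that differed between regions, by edgeR or by DESeq2 (edgeR, adjusted p = 1.0 for each of the 10 genes, with unadjusted p from 0.129 to 0.798, and 0.0114% of all genes called). None of the 10 was at an unadjusted p under 0.05, where 5.54% of all genes were.

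Summed per kilobase over the 10 genes, serotonin receptor mRNA measured 31.8 ± 1.94 CPM per kilobase in the WT frontal cortex and 39.6 ± 1.94 in the mutant frontal cortex, without overlap. Striatal sums were 28.0 ± 5.05 for WT and 34.3 ± 4.07 for mutants, and hippocampal sums 33.1 ± 4.16 for WT and 38.3 ± 2.25 for mutants, with overlapping ranges in both regions. The striatal overlap came from WT library 3 (33.8), the library with high choroid plexus content, since the other WT sums were below all mutant sums. By class, the Gi/o-coupled receptors summed to 13.5 to 14.5 CPM per kilobase in WT and 18 to 20.7 in mutant frontal cortex, and to 11.9 to 12.4 and 14.8 to 18.4 in the striatum. In the hippocampus the ranges of this class met, at 9.91 to 13.9 in WT and 13.9 to 18.2 in mutants. Sums of the Gq/11-coupled pair, of the Gs-coupled pair and of Htr3a overlapped between genotypes in every region, that of the Gq/11-coupled pair in the striatum again through WT library 3 alone (17.1). Sums over the members carry no test.

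The wider serotonin pathway was described with a list of 39 genes for synthesis, clearance, G proteins, effectors and partners of the receptors, of which 38 were tested. In the frontal cortex 1 of the 38 was called higher and none lower (1.74% of all genes called). This was Kcnj3, which encodes a GIRK channel subunit opened through Gi/o-coupled receptors, with 187 ± 12.4 CPM in WT and 244 ± 7.93 CPM in mutant libraries (0.38 ± 0.06, adjusted p = 0.0240). Its call was lost with lane in the model (adjusted p = 0.119) and without any library other than WT library 3 (0.0759 to 0.174), while the log2 difference stayed between 0.34 and 0.43 in these fits. No gene of the list was called in the striatum or hippocampus with edgeR. In the hippocampus Kcnj6, the gene of another GIRK subunit, differed by 0.43 ± 0.09 (adjusted p = 0.391, and 0.0106 with DESeq2). In the frontal cortex 5 genes of the list were higher and 7 lower at an unadjusted p under 0.05 (7.84% and 7.47% of all genes). The striatum had 3 higher and 8 lower (6.54% and 6.98% of all genes), and the hippocampus 5 higher and 3 lower (4.84% and 5.06%). Medians over the list were 0.01, −0.06 and −0.02.

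Between regions of WT mice, 13 of the 38 pathway genes differed at least 2-fold between striatum and frontal cortex (16.6% of all genes), 5 higher and 8 lower. Such differences were found in 12 between striatum and hippocampus (12% of all genes), 4 higher and 8 lower, and in 3 between hippocampus and frontal cortex (11.2% of all genes), 1 higher and 2 lower. Higher in the striatum than in the frontal cortex were Slc22a3, a low-affinity amine transporter (22.5 ± 7.73 against 2.13 ± 1.21 CPM, 3.40 ± 0.39), Adcy5, the main adenylyl cyclase of the striatum (3.20 ± 0.12), and the amine transporter Slc29a4. Slc29a4 is also made by the choroid plexus, and its difference was 2.16 ± 0.61 with WT striatum library 3 (adjusted p = 0.0159) and 0.88 without it (adjusted p = 0.0245), and its call was lost without WT frontal cortex library 2 (adjusted p = 0.0569). The largest falls were those of the GIRK subunit genes Kcnj6 (34.3 ± 5.57 CPM in the frontal cortex, 1.80 ± 0.31 CPM in the striatum, −4.25 ± 0.16), Kcnj3 (−2.47 ± 0.13) and Kcnj9 (−2.28 ± 0.10), all with adjusted p of at most 2.47e-07. Against the hippocampus the striatum again had more Slc22a3 (4.03 ± 0.41), Adcy5 (3.69 ± 0.12) and Gnal (2.35 ± 0.09), and less Kcnj6 (−4.65 ± 0.16), Tph1 (−3.54 ± 1.02) and Kcnj3 (−2.48 ± 0.13). Tph1 was at most at 1.14 CPM in the WT libraries, and its call was lost without WT striatum library 1 (adjusted p = 0.0756) or 2 (0.0794) or WT hippocampus library 3 (0.106). In the hippocampus Slc29a4 exceeded the frontal cortex (3.26 ± 0.62), and Kcnj9 (−1.22 ± 0.09) and S100a10, a binding partner of HTR1B and HTR4 (−1.04 ± 0.15), were lower. Of the 4 genes listed as markers of raphe serotonin neurons, Slc6a4 had at most 5 reads, Fev at most 11 reads and Tph2 at most 36 reads in any library. The fourth is Slc22a3, which made up most of the striatal sum of this list, 18.1 to 32.7 CPM in WT and 35.8 to 38.2 CPM in mutant libraries without overlap, against 1.22 to 4.17 CPM elsewhere. Slc22a3 itself measured 31.4, 17.4 and 18.6 CPM in the WT striatum and 37.2, 35.4 and 37.5 CPM in the mutant striatum.

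Of the 4 other serotonin receptor genes, Htr2b had 1 to 7 reads and Htr3b 0 to 4 reads per library, and neither was tested. Htr6 encodes another Gs-coupled receptor and was not part of the shares and class sums of the 10 genes. In the WT striatum it measured 3.85 CPM per kilobase, against 3.23 for the sum of Htr4 and Htr7. It lay between 4.31 and 11.1 CPM in all libraries. Its genotype differences were 0.29 ± 0.16 (frontal cortex), 0.27 ± 0.09 (striatum) and 0.42 ± 0.20 (hippocampus), none of them called (adjusted p = 0.282 to 0.542). Leaving out single libraries gave 0.11 to 0.43 in the frontal cortex and 0.26 to 0.59 in the hippocampus. Htr5b was a gene of the hippocampus, at 2.00, 3.75 and 10.04 CPM in WT and 3.98, 6.88 and 3.71 CPM in mutants, against at most 0.60 CPM in any other library. The highest value was that of WT library 3, in which the habenula gene Gpr151 had 746 reads, against 15 to 47 in the other hippocampal libraries. Without it the hippocampus remained above the frontal cortex in WT mice (2.74, against 3.61 ± 0.63 with it).

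As a description of which transcripts ran parallel to each receptor, Pearson correlations of log2 CPM over the 18 libraries were taken with each of 12870 genes. The libraries share regions and animals. The closest gene was Tmem200a for Htr1a (r = 0.992), Gprin3 for Htr1b (0.993), Asic4 for Htr1d (0.991), Ugcg for Htr1f (0.960) and Armcx1 for Htr5a (0.974). It was Sun1 for Htr2a (0.971), BC067074 for Htr2c (0.973), Ippk for Htr4 (0.983), Ctnnbip1 for Htr7 (0.967) and Map2k4 for Htr3a (0.990). After the means of the 6 groups were removed, these correlations ranged from 0.370 for Ippk with Htr4 to 0.940 for Map2k4 with Htr3a. BC067074 still followed Htr2c at 0.926.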

How the data were processed

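Bulk mRNA of dissected frontal cortex, striatum and hippocampus was sequenced with a stranded kit. The authors trimmed reads with Trim Galore and cutadapt, aligned them with STAR to GrCm38r73 and counted them per gene with HTSeq (versions and strand setting are not given in the sources used here). The deposited values are raw counts per gene. Reads on no gene (8.985 to 11.556%) or on several (1.575 to 1.789%) were left out of library sizes.

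A gene was tested where any library held 10 or more counts of it, with edgeR 4.0.16 (R 4.3.3; TMM, quasi-likelihood test, Benjamini-Hochberg adjustment) at an adjusted p of 0.05, between genotypes within a region and between regions within a genotype. A standard error is the log2 fold change over the square root of F. Alternatives were DESeq2 1.42.0 and its size factors, other filters, lane, all 18 libraries in a fit, replicate and animal blocks and leaving out each library. Exon lengths and coordinates came from GENCODE M21 (GRCm38, another release than the authors'), and promoters from RefSeq.

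The genes and lists were chosen with earlier results of these data known. Named were the 10 receptor genes, the other Htr genes, pathway genes called between genotypes, the 3 largest 2-fold changes in each direction per WT region pair, and the genes most correlated with each receptor among those whose log2 CPM averaged 1 or more (only the closest is printed). Kcnj6 in the hippocampus and D430036J16Rik were named after their values were seen. File names tie regions to animals. WT striatal numbers do not follow the animal, so an animal block was also run in WT mice. Between regions of 1 WT animal r was 0.0801 to 0.386, against −0.284 to −0.103 for the same number and different animals. For different numbers and different animals it was −0.291 to 0.102, which overlapped with 1 animal for striatum and hippocampus. In mutants same-numbered libraries came from 1 animal and deviated together (r 0.110 to 0.318, against −0.225 to 0.0487 for different animals). Between genotypes the libraries are separate animals. Methods were tested on simulated data.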

Additional observations from a re-analysis of the deposited data

How the results depend on the processing

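The number of receptor genes called between genotypes in the frontal cortex (2) was 0 with lane within the region, 1 with all 18 libraries, 0 with all 18 libraries and lane, and 0 to 3 when each library was left out. Over all genes 306 were called, and 29, 176, 95 and 11 to 825 in these fits. DESeq2 and the fit with no filter each called 3 (Htr1a added, adjusted p = 0.0133 and 0.0376), with 690 and 505 calls over all genes. The cause was not tested. In the striatum (0) DESeq2 called 1, and in the hippocampus (0) the fit of 18 libraries with lane called 1, Htr1a (adjusted p = 0.0350). With the replicate number as a block, 3 were called in the frontal cortex (Htr1a added, adjusted p = 0.0283) and 0 in the other regions. Between genotypes, same-numbered libraries had r of 0.0428 to 0.260 (frontal cortex), −0.269 to 0.178 (striatum) and 0.0955 to 0.507 (hippocampus). Different numbers gave −0.223 to 0.0395, −0.348 to 0.388 and −0.387 to 0.232, without overlap only in the frontal cortex. The labels do not say whether a shared number pairs the genotypes. Blocks changed no count of calls between regions by more than 1.5 times. In mutants, calls without a fold threshold were 6 in place of 3 for hippocampus against frontal cortex and 7 in place of 4 for striatum against hippocampus, and leaving out libraries gave 3 to 5 and 4 to 5. For hippocampus against frontal cortex the 5 came without mutant hippocampus library 2.

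Of the 30 genotype differences of the 10 genes in the 3 regions, 21 moved by over 1.5 times without some library. The sign of the log2 fold change turned in the following differences, none of which was called with all libraries. With lane, Htr4 in the frontal cortex came to −0.17. With all 18 libraries and lane, Htr1a and Htr3a in the striatum came to −0.23 and −0.20. The difference of Htr5b in the hippocampus came to 0.069 with the replicate block, 0.031 with lane and 0.076 with 18 libraries and lane, against −0.15. Leaving out single libraries gave −0.0084 to 0.069 for Htr1b, −0.081 to 0.63 for Htr4, −0.024 to 0.13 for Htr7 and −0.15 to 0.0088 for Htr3a in the frontal cortex. In the striatum it gave −0.056 to 0.22 for Htr1a, −0.12 to 0.58 for Htr2c and −0.40 to 0.028 for Htr7, and in the hippocampus −0.54 to 0.72 for Htr5b. Between WT hippocampus and frontal cortex it gave −0.084 to 0.68 for Htr1d, −0.042 to 0.13 for Htr7 and −0.47 to 0.086 for Htr3a. Between striatum and hippocampus it gave −0.13 to 0.066 for Htr1f and −0.62 to 0.086 for Htr2c in WT mice, and −0.19 to 0.047 for Htr1f in mutants. Depth limits Htr1d outside the striatum and Htr4 in the frontal cortex, at 2 to 26 reads a library.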
